A study of Homo sapiens with 4 samples.

Results

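The genes described here are 10 markers of neural and astroglial identity, followed in U87MG cells, an established human glioblastoma line, after 24 h with the fungal metabolite chaetocin. They are *MYT1*, *MYT1L*, *MLC1*, *RELN*, *GFAP*, *NES*, *SOX2*, *SOX9*, *S100B* and *OLIG2*, 10 of the 57905 genes listed in the counts. *MYT1*, *MLC1* and *RELN* were chosen by their read counts in these same samples, which rose with chaetocin, so their change is given as a description without a test. The other 7 were set beside them as known neural or glial markers, to see whether they moved too. A filter on low counts kept 16416 genes, and 7 of the 10 markers passed it.

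The study tested chaetocin as a compound that sensitizes glioblastoma cells to the death ligand TRAIL and other pro-apoptotic agents, and also profiled gene expression. The paper describes it as inhibiting histone methyltransferases without specificity, and also a thioredoxin reductase. It reports more reactive oxygen species with chaetocin, and no change in H3K9 trimethylation. Polyadenylated RNA was sequenced from 2 control and 2 chaetocin samples of U87MG cells labelled wild type. Chaetocin was given at 50 nM from a solution in DMSO for 24 h, whereas control cells were left untreated, so the solvent and the compound cannot be told apart. All samples come from 1 cell line and each group is a pair of duplicates. Whether these were separate cultures or days is not stated, so p-values measure only the spread between these samples. Totals ranged from 21241984 to 32590479 reads per sample, and 3 reads corresponded to 0.0844 to 0.138 CPM (reads scaled to a common library size by the TMM method). Below this floor a gene can have 0 reads by chance, and because reads were amplified by PCR, the floor and the intervals given here cover counting error only. The median difference between samples of a group was 0.16 on the log2 scale in controls and 0.26 in chaetocin.

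Identity genes of the nervous system are switched on in sequence as neural stem cells become neurons, astrocytes or oligodendrocytes. Nestin (*NES*) and *SOX2* mark stem and progenitor cells, *SOX9* and *GFAP* mark the astroglial lineage, and *OLIG2* marks progenitors of oligodendrocytes and many gliomas. In non-neural cells many neuronal genes are kept silent by repressors such as REST and by repressive chromatin.

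The 3 genes *MYT1*, *MLC1* and *RELN* were close to silent in control cells and were read in both chaetocin samples. The upstream sequences of these 3 genes are shown because they are the members whose expression changed from near 0. They are the 250 bases before each start site of RefSeq on GRCh38.p14, with CpG dinucleotides in capitals. *MYT1* lies on the plus strand, with its window at chr20:64164202-64164451, while *MLC1* and *RELN* lie on the minus strand. *MLC1* has 2 start sites, with windows at chr22:50085427-50085676 and chr22:50085876-50086125, and the *RELN* window is at chr7:103989659-103989908.
MYT1: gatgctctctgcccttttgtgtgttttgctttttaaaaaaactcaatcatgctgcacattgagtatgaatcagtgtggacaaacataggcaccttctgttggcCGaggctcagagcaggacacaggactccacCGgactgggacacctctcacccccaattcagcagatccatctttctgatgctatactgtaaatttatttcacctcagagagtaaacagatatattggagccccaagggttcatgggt
MLC1 start 1: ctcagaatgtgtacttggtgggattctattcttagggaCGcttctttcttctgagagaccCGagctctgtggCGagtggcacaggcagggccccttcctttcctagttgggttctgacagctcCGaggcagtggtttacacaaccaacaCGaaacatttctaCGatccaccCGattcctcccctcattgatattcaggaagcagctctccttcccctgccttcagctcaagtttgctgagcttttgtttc
MLC1 start 2: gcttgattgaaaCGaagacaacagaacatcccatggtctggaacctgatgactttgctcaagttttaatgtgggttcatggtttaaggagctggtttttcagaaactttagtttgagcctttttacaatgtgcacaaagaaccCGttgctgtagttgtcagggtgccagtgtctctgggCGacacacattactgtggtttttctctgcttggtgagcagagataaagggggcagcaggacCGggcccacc
RELN: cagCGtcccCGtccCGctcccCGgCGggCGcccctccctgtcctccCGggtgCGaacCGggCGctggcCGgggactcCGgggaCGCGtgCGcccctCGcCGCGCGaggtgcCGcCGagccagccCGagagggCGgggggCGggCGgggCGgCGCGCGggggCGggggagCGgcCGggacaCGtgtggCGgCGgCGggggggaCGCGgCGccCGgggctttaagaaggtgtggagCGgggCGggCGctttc

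The windows shown for the 3 genes do not share a kind of upstream sequence. The *MYT1* window held 2 CpG and a GC content of 45.6%, and 14.7% of the 35114 RefSeq windows held fewer CpG. The *MLC1* windows held 7 and 4 CpG, with 41.1% and 29.3% of windows below them. The *RELN* window held 43 CpG and a GC content of 83.2%, more CpG than 99.0% of windows, against a median of 11 CpG and 58.0% GC over all windows. The RefSeq start of *MYT1* lies 62.1 kb inside the gene as GENCODE v29 draws it, so the window shown is that of an internal start. The sequence before the GENCODE start was not examined, and which start these cells used was not tested. Windows were found for 6 of the 10 genes. Besides those shown, *NES* had 8 CpG, *SOX2* 20, and the 4 windows of *MYT1L* 2 to 7.

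Short motifs were searched on both strands of the same windows. The GC box GGGCGG occurred 6 times in the *RELN* window, and in none of the *MYT1* or *MLC1* windows, while 42.6% of all windows held it. Each match contains a CpG. The *RELN* window also held 1 E-box CANNTG, which 61.8% of windows hold. The loose AP-1 pattern TGANTCA, with any base at its centre, was found once in the *MYT1* window, as TGAATCA. That match started 185 bases before the start site, and 6.57% of all windows held the pattern. The core of the antioxidant response element, TGACNNNGC, was found once in the window of the second *MLC1* start, at 202 bases, and in 10.9% of all windows. The sequence TATAAA was in none of these 4 windows and in 10.7% of all windows. These matches describe letters only.

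*MYT1* encodes a zinc finger transcription factor that promotes neuronal differentiation. Its gene lies at chr20:64102394-64242253 on GRCh38. Its reads numbered 2 and 1 in control and 171 and 437 with chaetocin, or 0.0820 and 0.0348 against 7.86 and 12.3 CPM. Both chaetocin samples lay above both controls, as they did for 26.8% of all genes tested, and chaetocin sample 2 was higher than sample 1. The ratio of summed reads, scaled to library size, was 188, with a 95% interval of 64.0 to 914 that reflects the 3 control reads. The group means were 0.0584 ± 0.0333 and 10.1 ± 3.14 CPM (SD, n = 2 each). In these bulk samples, a change in the number of cells that express a gene and a change in RNA per cell cannot be told apart.

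*MLC1* encodes a membrane protein of astrocyte end-feet that takes part in volume regulation and is mutated in a childhood leukoencephalopathy with subcortical cysts. Its gene lies at chr22:50059391-50085902. Neither control sample held a read (0 and 0), whereas chaetocin gave 64 and 223 reads, or 2.94 and 6.28 CPM. Set against a floor of 3 reads per control library, the chaetocin mean of 4.61 ± 2.36 CPM (SD, n = 2) was at least 40.6-fold higher. Both chaetocin samples were far above that floor and differed from each other by a log2 value of 1.09, the widest gap between chaetocin samples among the 3 genes.

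*RELN* encodes reelin, a secreted glycoprotein that guides the placement of migrating neurons. Its gene lies at chr7:103471784-103989516. It had 1 read in each control sample and 45 and 94 reads with chaetocin, or 0.0410 and 0.0348 against 2.07 and 2.65 CPM. The ratio of summed reads was 64.5, with a 95% interval of 17.5 to 538. The chaetocin samples were nearer to each other than for *MYT1* and *MLC1*, with a mean of 2.36 ± 0.409 CPM (SD, n = 2).

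**Figure D1:**
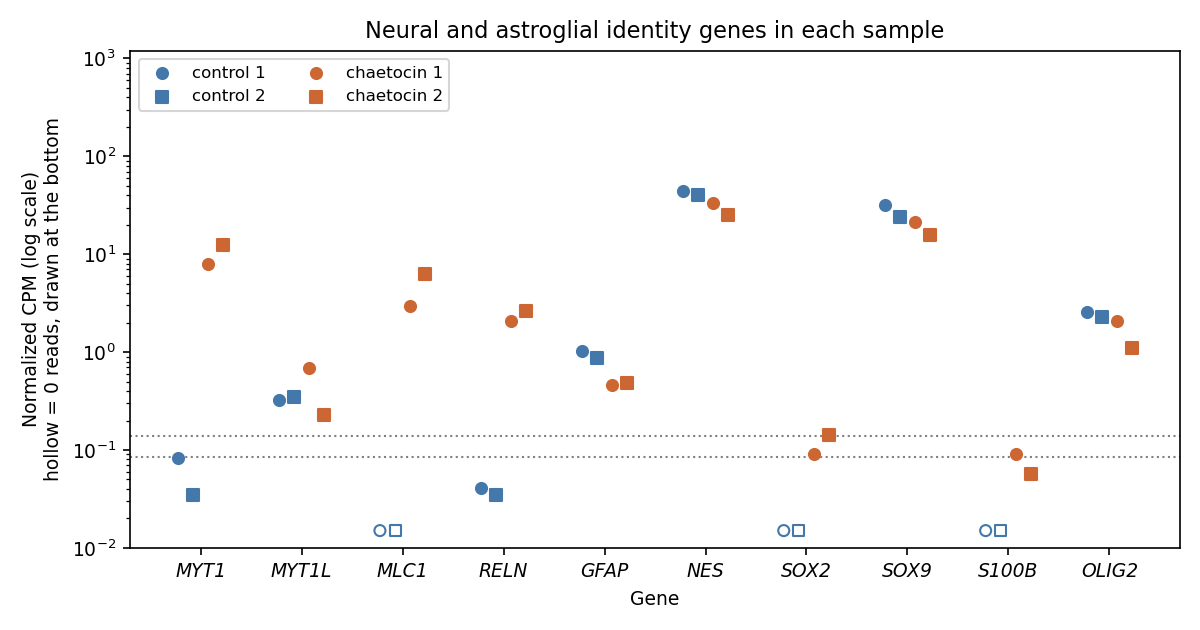
Normalized CPM of each of the 10 genes on a log axis, with 1 point per sample, control in blue and chaetocin in orange. Hollow points drawn at the bottom had 0 reads and dotted lines mark the lowest and highest floor of 3 reads (0.0844 and 0.138 CPM). *MYT1*, *MLC1* and *RELN* rise from the floor or 0, and *GFAP*, *NES*, *SOX9* and *OLIG2* lie lower in both chaetocin samples.

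The closest relatives of *MYT1* did not show this pattern. *MYT1L*, its paralogue, which represses non-neuronal genes in neurons, had 8 and 10 reads in control and 15 and 8 with chaetocin, and it did not pass the filter. The groups overlapped, and the ratio of summed reads was 1.19, with a 95% interval of 0.612 to 2.33. *ST18*, the remaining member of the *MYT1* family, had 248 and 340 reads against 203 and 157 (log2 fold change −0.70 ± 0.33 SE, edgeR adjusted p = 0.288).

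*NES*, *SOX9*, *GFAP* and *OLIG2*, the 4 comparison markers that passed the filter, stood lower in both chaetocin samples, and none of the 4 passed the test. *NES*, which encodes the intermediate filament of neural progenitors, had 44.7 and 40.2 CPM in control and 33.6 and 25.1 with chaetocin (log2 fold change −0.54 ± 0.18 SE, edgeR adjusted p = 0.155). *SOX9*, a transcription factor of gliogenesis, had 31.6 and 24.3 against 21.2 and 15.6 CPM (−0.61 ± 0.21, edgeR adjusted p = 0.165). In both genes the higher chaetocin sample lay below the lower control sample, but that gap was smaller than the gap between the chaetocin samples.

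*GFAP*, the filament protein of mature astrocytes, was scarce in these cells. It had 25 reads in each control sample and 10 and 17 with chaetocin (log2 fold change −1.0 ± 0.47 SE, edgeR adjusted p = 0.280). *OLIG2*, a basic helix-loop-helix factor, had 63 and 65 reads against 45 and 39 (−0.64 ± 0.39, edgeR adjusted p = 0.398). All 4 of these genes had both chaetocin samples below both controls, a pattern shown by 26.0% of all genes tested. None of the 4 was called by edgeR at an adjusted p of 0.05, where 1.11% of all genes tested were called higher and 0.743% lower (1.85% in all). At an unadjusted p under 0.05, 2 of the 4 were lower and 0 higher, beside 9.43% of all genes that were lower and 10.9% that were higher, and DESeq2 called 0 of them.

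*SOX2*, a stem cell transcription factor, and *S100B*, a calcium-binding protein of astrocytes, were near or below the detection floor. *SOX2* had 0 reads in both controls and 2 and 5 with chaetocin. *S100B* had 0 reads in both controls and 2 in each chaetocin sample. Neither passed the filter. From counting error alone, the lower 95% limit of the ratio of summed reads was 1.34 for *SOX2* and 0.612 for *S100B*. With no filter, neither passed the test (edgeR adjusted p = 0.441 and 0.639). *SOX2-OT*, the transcript that overlaps *SOX2* on the same strand, had 3 and 1 reads against 3 and 7.

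The calls for *NES* and *SOX9* depended on the samples. Without chaetocin sample 1 their log2 fold changes were −0.76 (edgeR adjusted p = 0.00356) and −0.84 (edgeR adjusted p = 0.00819). That fit has 1 chaetocin sample, which is assumed to vary like the controls, and it called 1673 of all genes lower and 1332 higher in place of 122 and 182, so these 2 calls are not particular to *NES* and *SOX9*. With no filter on low counts *SOX9* was also called (edgeR adjusted p = 0.0374), where 759 genes were lower and 787 higher. No setting brought a higher call for *NES*, *SOX9*, *GFAP* or *OLIG2*.

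**Figure D2:**
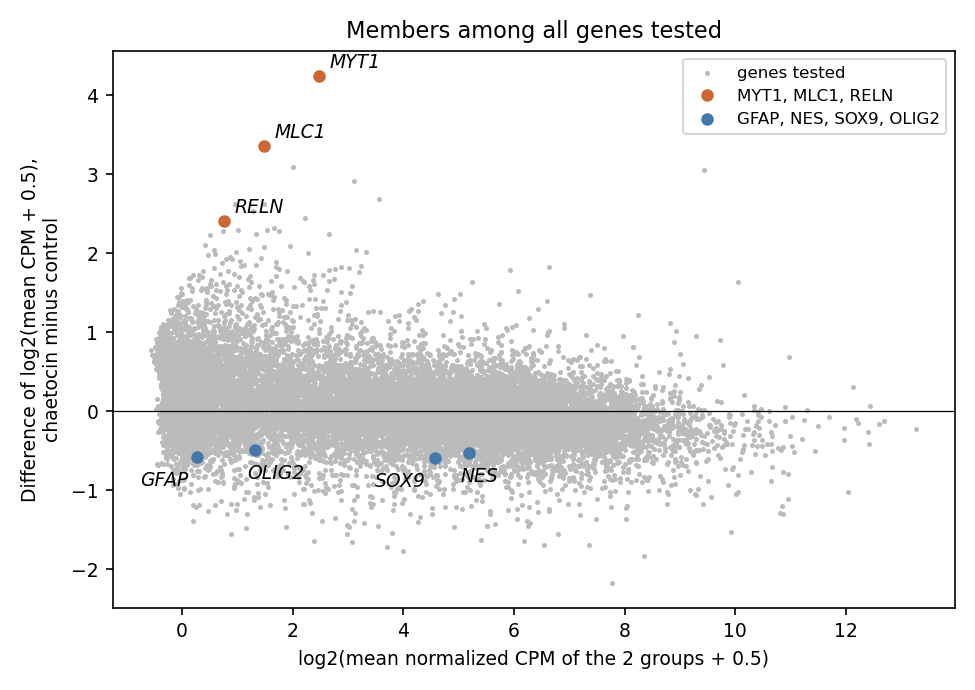
Each grey point is 1 of the 16416 genes tested, with the log2 of its mean CPM (plus 0.5) on the horizontal axis and the difference of log2(mean CPM + 0.5) between chaetocin and control on the vertical axis. *MYT1*, *MLC1* and *RELN* (orange), picked for this difference, stand at the top of the cloud, and *GFAP*, *NES*, *SOX9* and *OLIG2* (blue) lie just below 0 within it.

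Per kilobase of transcript, *NES* and *SOX9* led the 10 genes in both groups. In control cells *NES* stood at 7.64 ± 0.564 and *SOX9* at 7.11 ± 1.32 CPM per kb (SD, n = 2), a gap smaller than the spread between samples. *OLIG2* followed at 0.742, *GFAP* at 0.145, *MYT1L* at 0.0461, *MYT1* at 0.0104 and *RELN* at 0.00327, with *MLC1*, *SOX2* and *S100B* at 0. With chaetocin, *MYT1* at 1.80 ± 0.560 and *MLC1* at 1.17 ± 0.600 CPM per kb took the places after *NES* (5.28 ± 1.08) and *SOX9* (4.67 ± 1.01). The gap between *NES* and *SOX9* and that between *MYT1* and *MLC1* were smaller than or near the spread, and that between *SOX9* and *MYT1* was larger. They thus passed *OLIG2*, which was at 0.485, and *RELN* at 0.204 stood above *GFAP* at 0.0717.

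Checked against defining markers, U87MG cells showed only part of a neural or astroglial identity. *AQP4*, *GJB6* and *HEPACAM* of astrocytes, *OLIG1* and *SOX10* of oligodendrocytes, and *SOX1*, *MSI1* and *HES5* of neural stem cells had 0 reads in all 4 samples. They are a minority of their lists: 2 of 31 astrocyte genes, 4 of 24 stem and radial glia genes and 7 of 22 oligodendrocyte genes had 0 reads everywhere, while *CD44*, *CLU* and *GJA1* of astrocytes were abundant. Of 147 genes in 5 lists of lineage markers, 28 had 0 reads everywhere and 84 passed the filter. Of these 84, 4 were called higher (4.76%) and 4 lower (4.76%), beside 1.11% and 0.743% of all genes tested. Of the 4 called higher, *NCAN* and *PROM1* passed the filter only through the chaetocin samples, so the share of higher calls is given as a description. The median log2 fold change of the 84 was −0.01, against 0.01 over all genes. Over 10 neural and glial lists together, 4 of 170 genes tested were called higher (2.35%) and 6 lower (3.53%), and 52 of 263 genes had at most 3 reads in every sample. With upper quartile scaling the split of all calls was 246 higher and 88 lower, in place of 182 and 122, and that of the 10 lists was 6 and 5. With at least 10 reads in every sample 2 genes of the 10 lists were higher, with no filter 15 were higher and 26 lower, and DESeq2 called 9 and 13. The counts were 22 and 37 without chaetocin sample 1 and 13 and 17 without chaetocin sample 2.

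The 4 neural genes called higher came from 4 different lists. *NCAN* and *PROM1* entered the test only because they were read with chaetocin, so they are described without a p-value. *PROM1* encodes CD133, a surface protein of neural and glioma stem cells, and had 6 and 9 reads in control and 33 and 63 with chaetocin, a ratio of summed reads of 5.94 with a 95% interval of 3.43 to 11.02. *NCAN* encodes neurocan, a proteoglycan of brain matrix, and went from 0 reads in both controls to 23 and 94, at least 16.3-fold higher at the floor. *TUBB3*, the neuronal beta tubulin, rose from 74 and 129 to 239 and 430 reads (log2 fold change 1.61 ± 0.26 SE, edgeR adjusted p = 0.0306). *DLX1*, a homeobox factor of forebrain interneurons, rose from 391 and 396 to 700 and 1403 reads (1.27 ± 0.18, edgeR adjusted p = 0.0279). The 4 genes were picked for being called, so no count over them is read.

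The genes that fell included well known astrocyte genes. *SLC1A3*, the glial glutamate transporter, fell from 53.4 and 49.6 to 23.5 and 20.9 CPM (log2 fold change −1.22 ± 0.16 SE, edgeR adjusted p = 0.0266). *GJA1*, which encodes connexin 43, fell from 308 and 270 to 148 and 125 CPM (−1.08 ± 0.16, edgeR adjusted p = 0.0306). *CHI3L1*, a secreted glycoprotein of reactive astrocytes, fell from 121 and 160 to 58.3 and 57.5 CPM (−1.28 ± 0.17, edgeR adjusted p = 0.0266). *CSPG4*, the NG2 proteoglycan of oligodendrocyte progenitors, fell from 88.1 and 103 to 48.9 and 57.5 CPM (−0.85 ± 0.16, edgeR adjusted p = 0.0436), a call lost without control sample 2 (edgeR adjusted p = 0.159).

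Counts in the lists that follow are to be read against all genes tested, of which 10.9% were higher and 9.43% lower at an unadjusted p under 0.05, 1.11% and 0.743% were called, and 385 and 481 genes were called by DESeq2. Such counts of higher genes include those that passed the filter only through the chaetocin samples, such as *PROM1*, *NCAN*, *PTPRZ1* and *DCX*, and are descriptions. A median given for another setting is taken over the list genes fitted in that setting. These genes differ between settings, and with no filter or DESeq2 they include genes near the floor. Among 22 astrocyte genes tested, 3 fell, *NCAN* was called higher as described above and 18 did not pass the test, with a median log2 fold change of −0.15 that was 0.0019 without control sample 1 and −0.27 without chaetocin sample 2. Unadjusted p-values under 0.05 were found for 5 higher and 5 lower genes, and DESeq2 called 1 higher and 5 lower, with *CD44* and *NFIX* added to the 3. The most abundant of them per kilobase in control were *CD44*, *CLU* and *GJA1*, and *CD44*, a hyaluronan receptor, had a log2 fold change of −1.20 ± 0.28 (edgeR adjusted p = 0.0699). Of 17 neural stem and radial glia genes tested, *PROM1* was called higher as described above and none lower (median 0.09, and 0.31 without control sample 2 or 0.14 without chaetocin sample 2). At an unadjusted p under 0.05, 5 were higher and 3 lower, and DESeq2 called 3 higher (*PAX6*, *PROM1* and *ZIC2*) and *VIM* lower. *PAX6* had 372 and 395 reads in control and 626 and 874 with chaetocin (log2 fold change 0.88 ± 0.18 SE, edgeR adjusted p = 0.0504). *ZIC2* had 268 and 329 reads against 553 and 613 (0.92 ± 0.22, edgeR adjusted p = 0.0736). *VIM*, *TNC* and *BMI1* were the most abundant genes of the stem and radial glia list. Of 9 genes of the oligodendrocyte lineage tested, 1 fell and none rose (median −0.12), also at an unadjusted p under 0.05 (0 higher, 2 lower) and by DESeq2 (0 higher, 2 lower), where *CNP*, *UGT8* and *CSPG4* led. That median was 0.21 without control sample 1, 0.088 without chaetocin sample 2 and −0.054 without chaetocin sample 1. Of 21 genes of neuronal structure and synapse tested, 1 rose and none fell (median 0.17), with 2 higher and 3 lower at an unadjusted p under 0.05 and 1 and 0 by DESeq2. Over the list genes fitted in each setting, the median was 0.55 by DESeq2 and 0.54 with no filter, which both admit genes near the floor. It was 0.37 without control sample 2, 0.28 without control sample 1 and −0.0041 with at least 10 reads in every sample. The synaptic genes *STX1A* and *SNAP25* and the growth cone gene *GAP43* led that list, with log2 fold changes of −0.27, −0.95 and −0.59 that did not pass the test (edgeR adjusted p = 0.620, 0.230 and 0.420).

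Of 15 proneural transcription factors and REST complex genes tested, *DLX1* rose and none fell (median −0.12), with 3 higher and 1 lower at an unadjusted p under 0.05 and 2 and 0 by DESeq2. That median was 0.082 without chaetocin sample 1, 0.025 without chaetocin sample 2, 0.017 without control sample 2 and −0.071 without control sample 1. *REST* itself, which silences neuronal genes, had 1175 and 1541 reads in control and 924 and 1772 with chaetocin (log2 fold change −0.14 ± 0.16, edgeR adjusted p = 0.668). The groups overlapped for *REST*. Its partners *RCOR1* and *KDM1A*, which with *EBF2* were the most abundant of the list, had log2 fold changes of −0.12 and −0.17 (edgeR adjusted p = 0.690 and 0.518).

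The Notch pathway holds neural progenitors in an undifferentiated state. Of 18 of its genes tested, 1 fell and none rose (median −0.32), with 4 higher and 4 lower at an unadjusted p under 0.05 and 0 and 3 by DESeq2. Over the list genes fitted in each setting, the median was 0.30 with no filter and 0.30 by DESeq2, which both admit genes near the floor. It was 0.11 without control sample 1, 0.0083 without control sample 2 and −0.20 without chaetocin sample 2. The gene that fell was *MAML2*, a coactivator of Notch transcription, with a log2 fold change of −1.01 ± 0.17 (edgeR adjusted p = 0.0341). It was not called without control sample 1 (edgeR adjusted p = 0.0639) or control sample 2 (edgeR adjusted p = 0.0781). *NOTCH2*, *RBPJ* and *NUMB*, the most abundant, had log2 fold changes of −0.55, −0.57 and −0.49, none past the edgeR test.

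Reelin acts through the receptors *VLDLR* and *LRP8* and the intracellular adaptor *DAB1*. Both receptors were expressed in control cells. *VLDLR* had 5822 and 5370 reads in control and 3688 and 3214 with chaetocin (log2 fold change −0.71 ± 0.28, edgeR adjusted p = 0.207). *LRP8* had 2632 and 3690 against 3039 and 5463 (0.31 ± 0.15, edgeR adjusted p = 0.302). The adaptor *DAB1* had 0 reads in 3 samples and 7 in chaetocin sample 2. Of 33 genes of the pathway tested, 1 fell and none rose (median −0.10), with 2 higher and 6 lower at an unadjusted p under 0.05 and 1 and 1 by DESeq2. That median was −0.049 without chaetocin sample 1 and −0.027 with upper quartile scaling. The gene that fell was *ITGA3*, an integrin subunit that binds reelin, and the most abundant gene of the list with *ITGB1* and *PAFAH1B1*, at −1.11 ± 0.21 (edgeR adjusted p = 0.0437), a call lost without control sample 2 (edgeR adjusted p = 0.145).

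MLC1 sits in the astrocyte membrane with GlialCAM, the product of *HEPACAM*, and near the water channel *AQP4* and the potassium channel *KCNJ10*. *HEPACAM* and *AQP4* had 0 reads in all samples, and *KCNJ10* had 1 read in control sample 1 only. *CLCN2*, a chloride channel that binds GlialCAM, had 125 and 120 reads in control and 189 and 335 with chaetocin (log2 fold change 0.97 ± 0.23, edgeR adjusted p = 0.0721). Of 19 genes of the complex and of volume regulation tested, only *GJA1*, described above, was called, and it fell (median −0.06). That median was 0.02 with upper quartile scaling, and leaving out 1 sample gave 0.085 without chaetocin sample 1, −0.14 without chaetocin sample 2, −0.18 without control sample 1 and 0.043 without control sample 2. At an unadjusted p under 0.05, 1 was higher and 3 lower, and DESeq2 also called *CLCN2* higher. *CAV1*, among the most abundant of the list with *GJA1*, did not pass the test (edgeR adjusted p = 0.394).

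Neither of the remaining families held a called gene. None of 11 genes of the intermediate filament and SOX families was called (median 0.14, and −0.12 without chaetocin sample 1, 0.24 without chaetocin sample 2, 0.034 without control sample 1 and 0.24 without control sample 2). At an unadjusted p under 0.05, 2 of them were higher and 2 lower, and DESeq2 called 1 lower, *VIM*. *VIM*, which encodes the filament that pairs with GFAP and nestin, was their most abundant gene, with *LMNA* and *LMNB2* next, and had 68248 and 65218 reads in control and 38195 and 40788 with chaetocin (−0.80 ± 0.25, edgeR adjusted p = 0.134). None of 10 S100 genes was called (median −0.37, and −0.20 without chaetocin sample 2 or −0.23 without control sample 1). At an unadjusted p under 0.05, none was higher and 2 were lower, and DESeq2 called 1 lower, *S100A11*. *S100A6*, *S100A10* and *S100A16* led that family.

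**Figure D3:**
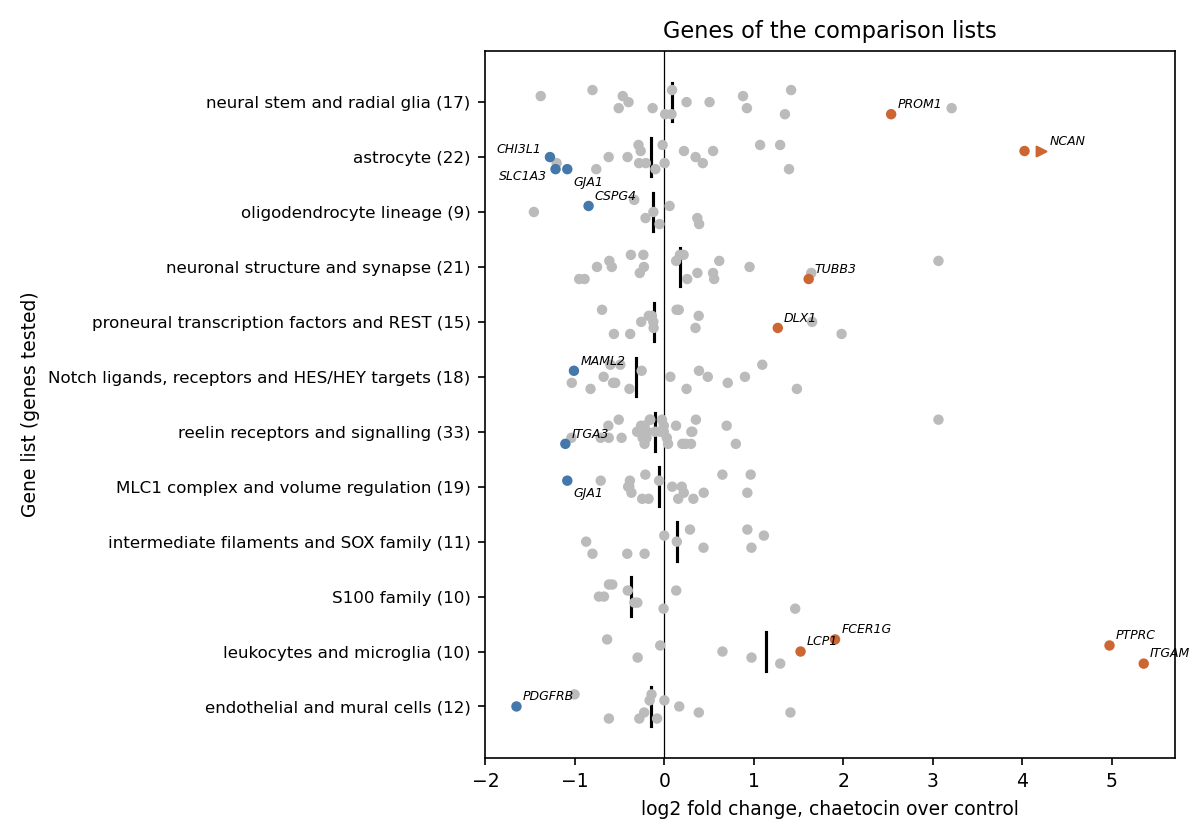
Log2 fold change of each gene tested in 12 lists, with the median as a black bar. Orange and blue points passed the edgeR test as higher or lower with chaetocin, of which *NCAN*, *PROM1*, *ITGAM* and *PTPRC* passed the filter only through the chaetocin samples, and *NCAN*, with 0 reads in control, is drawn at its lower bound of 16.3-fold with an arrow. The 10 neural and glial lists hold 0 to 4 called genes each, and calls on both sides of 0 occur in the astrocyte list alone.

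Markers of other cell types were read in the same way. Of 26 genes of leukocytes and microglia, 10 passed the filter and 4 were called higher, beside 1.11% of all genes tested. *ITGAM* and *PTPRC* passed the filter only through the chaetocin samples, so they are given without a p-value, and the count of 4 and the median of the list are a description. The median log2 fold change of the 10 was 1.13, and it was 0.56 without chaetocin sample 2, 1.68 without chaetocin sample 1 and 0.67 with at least 10 reads in every sample. The 4 genes were *LCP1* (1.52 ± 0.21, edgeR adjusted p = 0.0266), *FCER1G* (1.91 ± 0.37, edgeR adjusted p = 0.0466), *ITGAM* (0 and 1 to 24 and 29 reads) and *PTPRC* (0 and 1 to 15 and 27 reads), and DESeq2 called 3 of them, without *PTPRC*. With 1 control read each, the ratio of summed reads was 49.2 for *ITGAM* (95% interval 8.45 to 1978) and 39.0 for *PTPRC* (6.62 to 1575). The summed level of the list was 64.6 and 67.5 CPM in control and 94.5 and 92.5 with chaetocin. Of the 26 genes, 8 had 0 reads in all samples, among them *CD3E*, *MS4A1*, *AIF1*, *TYROBP*, *P2RY12*, *TREM2* and *GZMB*, and 10 had at most 3 reads in every sample. *CSF1R* and *ITGAX*, the most abundant of the list with *LCP1*, had log2 fold changes of −0.05 and −0.30, neither past the test. Of 12 endothelial and mural genes tested, none rose and *PDGFRB* fell (−1.65 ± 0.25, edgeR adjusted p = 0.0306), and *MCAM*, *PDGFRB* and *ACTA2* led. The median of that list was −0.15, with 1 higher and 3 lower at an unadjusted p under 0.05 and 0 and 3 by DESeq2. It was −0.037 without chaetocin sample 1 and −0.24 without control sample 2. The part of these genes in the changes of the neural genes was not tested.

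The genes around *MYT1*, *MLC1* and *RELN* were examined to see whether a change extended over the locus. Within 200 kb of either end of *MYT1*, 11 genes were tested and none was called, with log2 fold changes from −0.89 to 1.32 and a median of −0.05. Measured from the GENCODE start of *MYT1*, not the RefSeq start shown above, the nearest start sites tested were those of *OPRL1* and *RGS19*. They lay at −22.2 and −22.4 kb (negative is upstream), with log2 fold changes of 0.76 ± 0.34 and −0.35 ± 0.22. Around *MLC1*, 14 genes were tested and none called (−0.26 to 1.36, median 0.31), and around *RELN* 5 were tested and none called (−0.34 to 0.51, median 0.06). The start site nearest to that of *MLC1* was that of *MOV10L1*, at −3.98 kb on the opposite strand. *MOV10L1* had 4 and 0 reads in control and 5 and 10 with chaetocin, and it did not pass the filter. At an unadjusted p under 0.05, 1 neighbour of *MYT1* was higher and 1 lower, 3 of *MLC1* were higher, and 1 of *RELN* was higher and 1 lower, beside 10.9% and 9.43% of all genes tested. Both chaetocin samples lay above both controls for 3 of 11 neighbours of *MYT1*, 6 of 14 of *MLC1* and 2 of 5 of *RELN*, beside 26.8% of all genes, and below them for 3, 1 and 1, beside 26.0%. DESeq2 called 1 neighbour, *ZNF512B* near *MYT1*, as lower (edgeR log2 fold change −0.89 ± 0.20, edgeR adjusted p = 0.0611). *NPBWR2*, which lies within *MYT1*, and *RN7SKP86*, within *RELN*, had 0 reads in all samples. *AC005064.1*, antisense to *RELN*, had 0 reads in control and 2 in each chaetocin sample, and as the strand setting of the counting is not known, reads of antisense partners may be mixed.

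**Figure D4:**
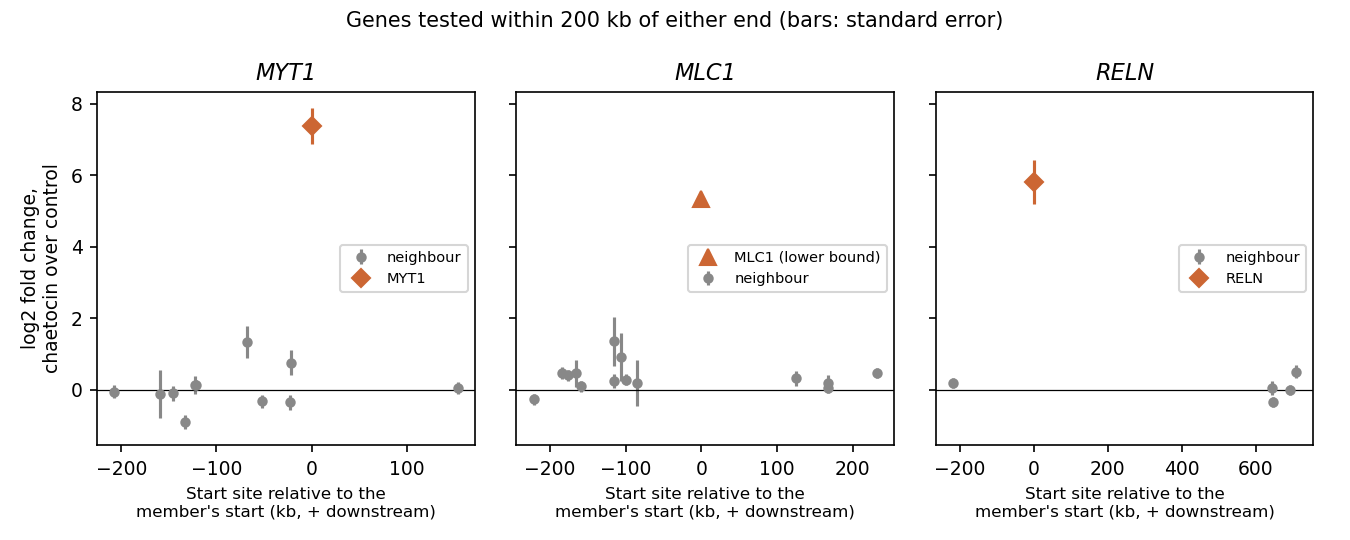
Log2 fold change (with standard error) of genes tested within 200 kb of either end of *MYT1*, *MLC1* and *RELN*. The horizontal axis is the distance of their start site from the GENCODE start of the member in kb, positive downstream. *MLC1* is drawn as a triangle at its lower bound of 40.6-fold. No neighbour was called by edgeR, and the highest neighbour stood at 1.36.

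Genes with the pattern most like that of each gene were listed by Euclidean distance of centred log2(CPM + 0.5) over the 4 samples, as a description. *MLC1* was itself nearest to *MYT1*, at 0.98, followed by *ARL14EPL* (1.15) and *HMOX1* (1.27), the heme-degrading enzyme of the oxidative stress response. Nearest to *MLC1* were *BICDL1*, a dynein adaptor (0.48), *ARL14EPL* (0.53) and *RPLP0P2* (0.68), a pseudogene whose reads may be shared with *RPLP0*. Nearest to *RELN* were *CYSRT1* (0.094), *LINC01054* (0.30) and *ENO3*, the muscle enolase (0.41). With 2 samples a group, such distances mainly follow the size of the difference between groups and the gap between chaetocin samples.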

How the data were processed

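RNA sequencing counts of U87MG cells were used from 2 control and 2 chaetocin samples, grouped by the sample labels. The authors deposited raw counts, whole numbers of reads per Ensembl gene, without normalization. Per the submitters' processing notes, cutadapt, TopHat2 and SAMtools were used with GRCh37. The counting tool and its strand setting are not given in the sources used here. The study's methods name DESeq2 for differential expression.

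Genes were tested in R 4.3.3 with the quasi-likelihood test of edgeR 4.0.16, after filterByExpr (minimum count 10), TMM normalization and a robust fit over all 4 samples. P-values were adjusted over the 16416 genes (Benjamini-Hochberg), and genes under 0.05 were called. The test was tested on simulated data with the same spread in all 4 samples, which does not bear on how stable the calls are here. Intervals of read ratios are exact at 95%. Symbols, positions and lengths (the longest coding transcript) came from GENCODE v29 on GRCh38, matched by identifier for 52338 of 57905 genes, since the builds differ. *NEFL*, *SCRT1*, *ZNF488*, *SOCS7* and *PECAM1* were not matched and were not analysed here.

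The members and the 12 gene lists were chosen with earlier results of these data known. Named genes were all 10 members, called genes of each list (at most 6), the 3 most abundant per kilobase in control, the 3 nearest in pattern to *MYT1*, *MLC1* and *RELN*, and neighbours within 200 kb that overlapped or were called. Other genes named in the text were chosen after their values were seen. Alternatives were other size factors (RLE and upper quartile), other filters, protein-coding genes, a prior count of 2, DESeq2 1.42.0, a replicate block and leaving out each sample. Some genes of the lists are not reported here.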

Additional observations from a re-analysis of the deposited data

How the results depend on the processing

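In place of 182 genes higher and 122 lower, the counts were 787 and 759 with no filter, 114 and 80 with at least 10 reads in every sample, and 385 and 481 by DESeq2. In place of 4 higher and 6 lower genes of the 10 neural and glial lists, they were 15 and 26 with no filter, 2 higher with at least 10 reads in every sample, where *NCAN* and *PROM1* were not tested, and 9 and 13 by DESeq2. Leaving out 1 sample gave 215 to 1332 higher and 97 to 1673 lower genes, and 5 to 22 and 6 to 37 of the lists. Without chaetocin sample 1 the counts were 1332 and 1673, without chaetocin sample 2 they were 712 and 940, and the cause was not tested.

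With a replicate block the counts were 1036 and 1053, and 19 and 30 in the lists. Replicates share only a number (correlation of their deviations 0.19 across genes, over 2 pairs), so the block was not used in the report. With it *NES* (edgeR adjusted p = 0.0226) and *SOX9* (edgeR adjusted p = 0.0152) were called lower. *CSPG4* was not called with upper quartile scaling (edgeR adjusted p = 0.0520) or at least 10 reads in every sample (edgeR adjusted p = 0.0562), nor was *ITGA3* with the latter (edgeR adjusted p = 0.0555). No fold change of the 10 called genes of the neural and glial lists, or of the 7 members past the filter, changed sign under an alternative in which it was tested. The fitted log2 fold changes, which depend on the prior count, ranged from 6.30 to 8.00 for *MYT1*, 6.03 to 10.54 for *MLC1* and 4.47 to 5.99 for *RELN*. Depth limits *SOX2* and *S100B*, which lie near the floor. *MYT1L*, with 8 and 10 reads in control and 15 and 8 with chaetocin, was above the floor but did not pass the filter.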

Other observations

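Genes that had 0 reads in both samples of a group and reads in both samples of the other were counted over all genes, as a description that takes no account of depth. Among 57905 genes, 1065 (1.84%) were at 0 in control and read in both chaetocin samples, and 337 (0.582%) the other way. Among 19263 protein-coding genes these were 327 (1.70%) and 41 (0.213%). Of the 263 genes of the 10 neural and glial lists, 6 (2.28%) were at 0 in control and read with chaetocin, and 1 (0.380%) the other way. Of the 147 genes of the 5 lineage lists, 5 (3.40%) were at 0 in control and read with chaetocin, and 0 the other way.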
